A study of Mus musculus with 17 samples.

Results

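The subject is a set of 30 genes of cholesterol and fatty acid synthesis, chosen by gene symbol from a table of raw counts that holds 15062 genes. All 30 symbols were found, each in 1 row. RNA had been sequenced from C2C12, a mouse myoblast line, made to express pMSCV (a retroviral vector backbone, the control), SRF (a transcription factor named serum response factor) or 1 of 4 fusions of SRF, written with the partner's name as SRF-RELA, SRF-PDGFRB, SRF-ICA1L and SRF-FOXO1. The 5 other lines were set against pMSCV, and the fusions also against SRF, in a study of SRF fusions as oncogenes of soft tissue tumours. All lines were grown in DMEM with 10% fetal bovine serum, and each line had 3 libraries, except SRF-PDGFRB with 2. The labels do not say whether a line was 1 clone or a pool, whether libraries of a line came from separate cultures, or what a replicate number stands for, so every p-value below measures the spread between these libraries, which may be technical.

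Cells make cholesterol from acetyl-CoA through mevalonate and squalene, and long-chain fatty acids from acetyl-CoA through malonyl-CoA. Genes of both routes are known targets of the sterol regulatory element binding proteins, SREBP-1 and SREBP-2, which are held in the endoplasmic reticulum by INSIG proteins when sterols are plentiful and are released to the nucleus when sterols run short. They often act at promoters next to NF-Y, a factor that binds the CCAAT box, whereas SRF binds the CArG box. In growing myoblasts both routes supply membrane lipid.

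Total counts per library ran from 20901442 to 23543734 and differed little between the replicate numbers, with 20948439 to 22262012 for number 1, 21047216 to 22278138 for number 2 and 21672748 to 23543734 for number 3. Levels are given as edgeR's CPM, the count of a gene relative to the TMM-scaled total of its library, and are not divided by gene length, so levels of different genes are not compared. Changes are log2 differences fitted by edgeR's quasi-likelihood test over the whole table, and a gene is called at a Benjamini-Hochberg adjusted p under 0.05. The myoblast markers Myod1 (5.69 to 111 CPM over the 17 libraries) and Des (44.5 to 892 CPM) were counted in every library. The adipocyte genes Adipoq, Plin1, Cidec, Cidea and Lep had no row and Fabp4 stayed at 0 to 1.37 CPM, but the other 4 of the list were counted in every library, Lpl at 5.79 to 269 CPM, Plin4 at 4.44 to 108, Cebpa at 7.63 to 38.9 and Pparg at 15.8 to 31.4. In whole-culture RNA, fewer cells with a transcript and less of it per cell cannot be told apart.

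Promoter windows of RefSeq (build GRCm38.p6, 250 bases before to 50 bases after a gene's start) were matched by symbol for 23 of the 30 genes, in 28 windows. Fads1, Sqle, Stard4, Scd1, Fdps, Fdft1 and Scd2 had no window in that table. The NF-Y box (CCAAT on either strand) was found in 20 of the 28 windows, 71.4%, against 37.4% of all 32851 windows. The sterol regulatory element searched (TCACNCCAC on either strand) was found in 1 window, that of Hmgcs1, and in 1.24% of all windows, and the CArG box was found in 0 of the 28 windows and in 1.63% of all. The motifs searched did not overlap in the windows printed. The 250 bases before the start are shown for Hmgcs1, the window with the sterol element, and, added after the values were seen, for Sc5d and Insig1, because these 3 genes had the smallest p for replicate number among the 30. Capitals mark the NF-Y boxes, read as CCAAT or, on the other strand, ATTGG, and in Hmgcs1 also the sterol element, at positions -137 to -129 from the start, as TCACCCCAC.
Hmgcs1, chr13:119690101-119690350, plus strand: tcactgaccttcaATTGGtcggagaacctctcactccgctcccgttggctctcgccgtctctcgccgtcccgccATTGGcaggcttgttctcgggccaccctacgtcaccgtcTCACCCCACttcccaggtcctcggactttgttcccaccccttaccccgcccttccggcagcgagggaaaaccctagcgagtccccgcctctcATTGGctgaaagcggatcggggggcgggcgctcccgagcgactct
Sc5d, chr9:42264301-42264550, minus strand: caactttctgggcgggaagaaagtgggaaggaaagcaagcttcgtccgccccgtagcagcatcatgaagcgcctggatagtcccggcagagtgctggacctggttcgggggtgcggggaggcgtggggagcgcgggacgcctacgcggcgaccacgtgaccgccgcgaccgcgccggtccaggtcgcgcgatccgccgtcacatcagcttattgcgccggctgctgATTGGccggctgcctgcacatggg
Insig1, chr5:28071162-28071411, plus strand: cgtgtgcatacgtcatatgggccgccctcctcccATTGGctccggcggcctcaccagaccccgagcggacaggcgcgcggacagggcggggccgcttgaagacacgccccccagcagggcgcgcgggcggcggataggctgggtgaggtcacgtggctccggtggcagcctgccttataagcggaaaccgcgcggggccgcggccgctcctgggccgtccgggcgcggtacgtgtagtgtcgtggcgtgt
The Sc5d and Insig1 stretches hold 1 NF-Y box each, and that of Hmgcs1 holds 3. A match describes these letters and does not show that a factor bound there. The lack of a match to the exact letters searched does not show that no such factor bound.

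Of the 30 genes, 28 varied more by replicate number than by line in the 5 lines with 3 libraries, against 50.6% of all genes. In the 15 libraries of the 5 lines that have numbers 1, 2 and 3, 24 of the 30 genes were called for replicate number by edgeR with line in the same fit, where 29.0% of the 14948 genes tested were called. Number 3 was lower than number 1 for 23 genes and higher for 0, against 6.38% of all genes called lower and 5.49% higher, and all 30 fitted differences were negative, with a median of -1.26 on the log2 scale against 0.0040 for all genes. Number 2 was lower than number 1 for 15 genes and higher for 0, against 3.77% of all genes called lower and 5.39% higher, with a median of -0.71. Number 3 was lower than number 2 for 14 genes and higher for 0, against 14.0% of all genes called lower and 12.5% higher, with a median of -0.62. A number is a label and has no order.

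**Figure D1:**
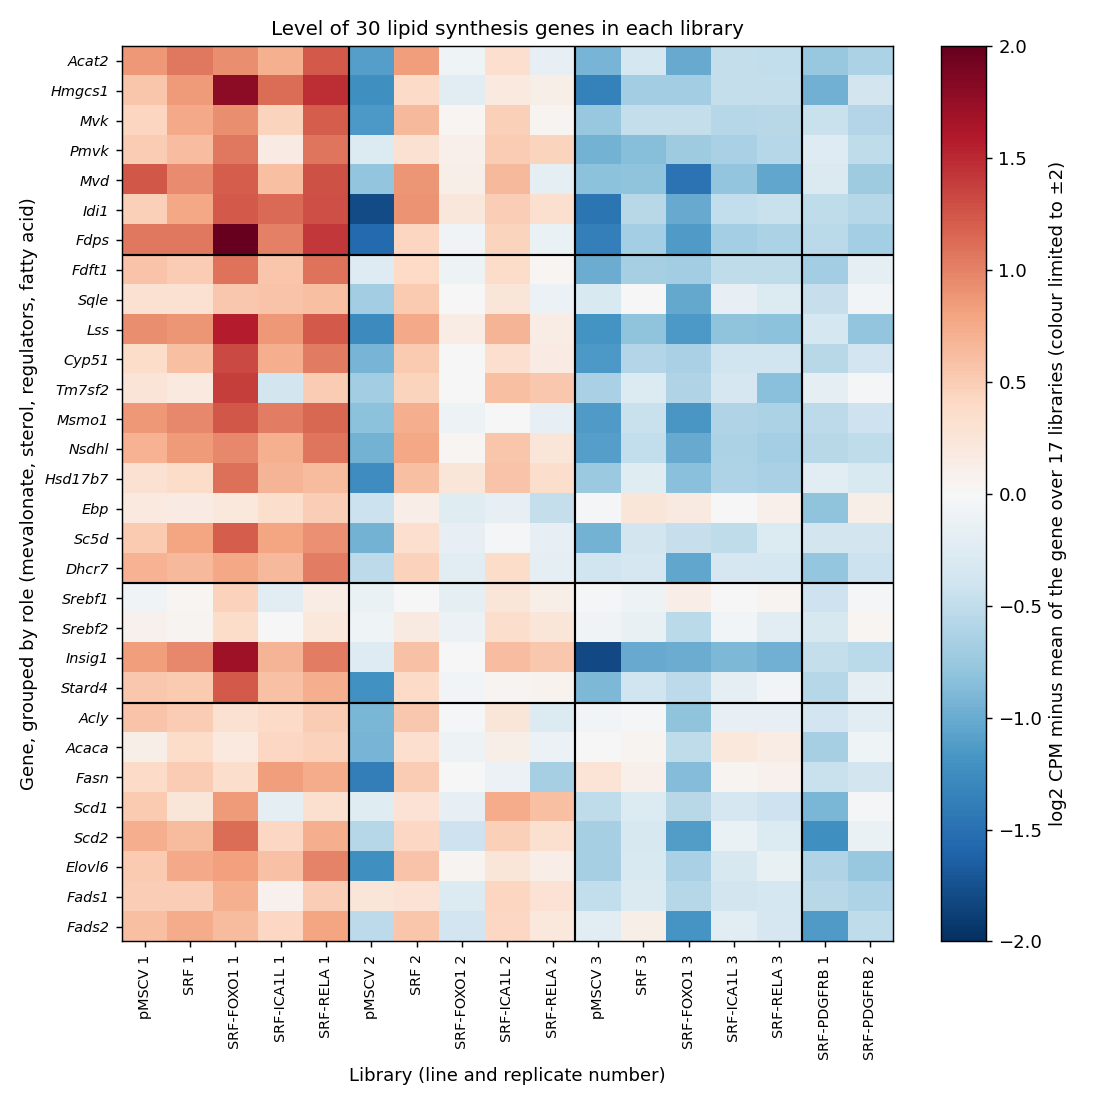
Level of each of the 30 genes (rows, grouped by role) in each of the 17 libraries (columns, ordered by replicate number, with SRF-PDGFRB last), as log2 CPM minus the mean of that gene over the libraries. The number 1 block is red for nearly every gene and the number 3 block blue, pMSCV replicate 2 stands apart from the other number 2 libraries, and the rows of Srebf1 and Srebf2 are pale throughout.

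The separation held gene by gene. For 26 of the 30 genes every one of the 5 number 3 libraries lay below every number 1 library, a pattern found in 4.18% of the 15062 genes. The exceptions were Ebp, Tm7sf2, Srebf1 and Acaca. Number 2 lay wholly below number 1 for 10 genes (1.99% of all genes), and number 3 wholly below number 2 for 6 (6.39%). Within the lines taken 1 at a time, number 3 was below number 1 in all 5 lines for 27 genes (16.2% of all genes), number 2 was below number 1 in all 5 for 17 (9.58%), and number 3 was below number 2 in all 5 for 12 (15.4%).

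The count for number 3 against number 1 moved least with the choice of libraries. Without any 1 of the 15 libraries, between 21 and 25 genes were called lower in number 3 than in number 1. The number 2 against number 1 count dropped from 15 to 3 without pMSCV replicate 1, SRF-RELA replicate 1 or SRF-RELA replicate 2, to 4 without SRF-ICA1L replicate 2 and to 6 without pMSCV replicate 2. The number 3 against number 2 count dropped from 14 to 8 without SRF-ICA1L replicate 2, and to 9 without SRF replicate 3, SRF-ICA1L replicate 3, SRF-RELA replicate 2 or SRF-RELA replicate 3. With the SRF-PDGFRB libraries added to the fit, 22 of the 30 were called lower in number 3 than in number 1, and 9 lower in number 3 than in number 2. In the first comparison 668 of all 15062 genes were called lower and 640 higher (8.68% in either direction). In the second, 513 were called lower and 350 higher (5.73%). Between numbers 2 and 1, 0 of the 30 were called (0.339% of all genes), where 18 had an unadjusted p under 0.05 (19.0%). DESeq2 on the 15 libraries called 25 between numbers 3 and 1 (17.4% of all genes), 21 between 2 and 1 (19.7%) and 20 between 3 and 2 (32.9%), and all of these were lower except 1 of the last.

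Genes of other lists were also called for replicate number, as were 29.0% of all genes. Number 3 was called higher than number 2 for 12.5% of all genes and lower for 14.0%. The shares of all genes called higher were 5.49% for number 3 against number 1 and 5.39% for number 2 against number 1. Of 10 proliferation genes, 5 were called higher in number 3 than in number 2 (Mki67 0.81, Top2a 0.86, Ccna2 1.005, Cdk1 0.79 and Tyms 0.68 on the log2 scale) and 0 between number 3 and number 1. The sum of the 10 was 2248 to 3427 CPM in number 1, 1209.8 to 3289 in number 2 and 2902 to 3943 in number 3. The myoblast genes Myod1 (1.19) and Des (0.78) were called higher in number 3 than in number 1, out of 6 listed, whose sum was 478 to 1581, 439 to 1711 and 373 to 1837 CPM in the 3 numbers. Of these 6, 2 were called higher and 1 lower in number 3 than in number 2, and 1 higher in number 2 than in number 1. For line beside number, 5 of the 6 were called, against 5.08% of all genes. By line, their sum was 1581 to 1837 CPM in pMSCV and 373 to 478 in SRF-FOXO1. The 5 counted adipocyte genes of 10 listed summed to 89.9 to 191, 111 to 370.0 and 83.1 to 289 CPM, with Cebpa (1.33) and Lpl (2.04) higher in number 2 than in number 1. Of these 5, 2 were called lower in number 3 than in number 2. The 4 fibroblast genes with a row, of 5 listed, summed to 31.4 to 232, 46.3 to 449.9 and 36.2 to 1782 CPM in the 3 numbers. The highest sum was that of 1 library, SRF-FOXO1 replicate 3, with 1622 CPM of Dcn, and the median sum of number 3 was 112.5 CPM. Pdgfra of these 4 was called lower in number 3 than in number 2 (-1.19). The 8 genes of differentiating muscle, with 0 called for replicate number, summed to 46.6 to 231, 38.7 to 314 and 39.96 to 349.7 CPM. The 2 immune genes with a row, of 5 listed, summed to at most 7.62 CPM over the 17 libraries, and the 2 endothelial genes of 4 to at most 2.81 CPM. Of the immune genes 0 were called for replicate number, and of the endothelial genes 1 was. The part of these in the differences described here was not tested.

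All 7 genes of the mevalonate steps were called lower in number 3 than in number 1, with a median log2 difference of -1.80, and Acat2, Hmgcs1, Idi1 and Fdps were also called lower in number 2 than in number 1. Values below are CPM in the order pMSCV, SRF, SRF-RELA, SRF-ICA1L and SRF-FOXO1 within a number, then the replicates 1 and 2 of SRF-PDGFRB. Hmgcs1, the cytosolic HMG-CoA synthase, lay at 362, 445, 688, 536 and 856 CPM in the number 1 libraries, at 106, 322, 268, 284 and 213 in the number 2 libraries and at 97.2, 152, 178, 178 and 152 in the number 3 libraries. The SRF-PDGFRB pair held 127 and 192 CPM. Number 1 lay wholly above number 2 and number 3, and pMSCV was the lowest of these 5 lines within each number. The log2 difference from number 1 was -1.31 (SE 0.19, edgeR adjusted p = 0.00584) for number 2 and -1.92 (SE 0.19, edgeR adjusted p = 0.000426) for number 3. Idi1, the isopentenyl diphosphate isomerase, lay at 88.6, 109, 155, 140.5 and 149 CPM in the number 1 libraries, at 18.4, 119, 79.9, 90.1 and 74.3 in the number 2 libraries and at 22.99, 43.2, 46.96, 45.1 and 31.8 in the number 3 libraries. In SRF-PDGFRB its level was 44.8 and 42.9 CPM. Number 3 lay wholly below number 1, and pMSCV replicate 2 lay below the number 3 libraries as well. Number 3 differed from number 1 by -1.80 (SE 0.26, edgeR adjusted p = 0.00185).

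The other 5 genes of these steps had the same arrangement. Acat2, the cytosolic thiolase that makes acetoacetyl-CoA, lay at 157, 178, 201, 141 and 164 CPM in the number 1 libraries, at 40.1, 154, 76.4, 109 and 81.4 with number 2, at 45.01, 67.7, 61.1, 61.9 and 42.9 with number 3, and at 50.8 and 55.7 in SRF-PDGFRB. SRF replicate 2 lay within the range of number 1 and pMSCV replicate 2 the lowest of all, and number 3 differed from number 1 by -1.63 on the log2 scale. Mvk, mevalonate kinase, lay at 50.4, 62.97, 86.8, 51.2 and 71.7 CPM in the number 1 libraries, at 16.8, 58.9, 38.7, 52.1 and 38.5 with number 2, at 22.1, 26.8, 25.5, 25.3 and 26.9 with number 3, and at 27.4 and 24.96 in SRF-PDGFRB. The number 3 libraries differed little among themselves and lay wholly below number 1 (-1.34). Pmvk, phosphomevalonate kinase, lay at 63.6, 68.2, 93.8, 49.9 and 92.3 CPM in the number 1 libraries, at 36.7, 54.8, 60.5, 63.4 and 47.6 with number 2, at 22.99, 24.6, 29.9, 28.4 and 27.1 with number 3, and at 37.01 and 31.1 in SRF-PDGFRB. Number 3 lay wholly below both other numbers, and number 2 overlapped number 1. Mvd, the decarboxylase of diphosphomevalonate, lay at 69.5, 57.1, 71.2, 44.8 and 68.4 CPM in the number 1 libraries, at 16.97, 54.1, 25.7, 46.1 and 32.1 with number 2, at 16.6, 16.9, 14.3, 16.9 and 10.6 with number 3, and at 24.1 and 18.1 in SRF-PDGFRB. Number 3 again lay below every other numbered library, by a small margin for pMSCV replicate 2, and its difference from number 1 was -2.08. Fdps, farnesyl diphosphate synthase, lay at 13.2, 13.2, 16.9, 12.8 and 26.3 CPM in the number 1 libraries, at 2.07, 8.503, 5.704, 8.62 and 6.002 with number 2, at 2.38, 3.88, 4.01, 3.89 and 2.81 with number 3, and at 4.27 and 3.87 in SRF-PDGFRB. Fdps had the largest fitted difference of the 30 genes between number 3 and number 1, -2.29 (SE 0.30, edgeR adjusted p = 0.00134), with 47 to 603 counts per library, and its number 1 libraries lay above all others.

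Of the 11 genes of the squalene and sterol steps, 9 were called lower in number 3 than in number 1, and Tm7sf2 and Ebp were not. Sqle, squalene epoxidase, a flux-controlling enzyme of the route, lay at 421, 419.9, 515, 503 and 496 CPM in the number 1 libraries, at 211, 492, 313, 401 and 339 in the number 2 libraries and at 276, 342, 281, 305 and 168 in the number 3 libraries. SRF-PDGFRB had 246 and 328 CPM. Number 3 lay below number 1, number 2 overlapped both, and the difference of number 3 from number 1, -0.81 (SE 0.19, edgeR adjusted p = 0.0204), was the smallest of the 9. Fdft1, squalene synthase, lay at 215, 206, 307, 213 and 306 CPM in the number 1 libraries, at 121, 191, 149, 186 and 135 with number 2, at 72.2, 91.3, 102, 101 and 89.6 with number 3, and at 88.9 and 127 in SRF-PDGFRB. The 3 numbers did not overlap: number 1 was highest, then number 2, then number 3 (-1.45, SE 0.15, edgeR adjusted p = 0.000426). Lss, lanosterol synthase, lay at 148, 144, 182, 141 and 231 CPM in the number 1 libraries, at 32.2, 131, 86.6, 124 and 86.00 with number 2, at 33.8, 44.5, 44.3, 44.6 and 35.01 with number 3, and at 60.8 and 45.02 in SRF-PDGFRB. Number 1 lay above all other libraries and pMSCV replicate 2 was the lowest. Cyp51, the lanosterol demethylase, lay at 299, 351, 479, 384 and 579 CPM in the number 1 libraries, at 122, 333, 262, 294 and 231 with number 2, at 104, 154, 175, 177 and 147 with number 3, and at 157 and 179 in SRF-PDGFRB. Number 3 lay wholly below number 1, and SRF replicate 2 lay within the range of number 1.

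Sc5d, the lathosterol desaturase, lay at 124, 149.9, 163, 149 and 199.7 CPM in the number 1 libraries, at 44.96, 109, 77.1, 85.4 and 77.3 with number 2, at 44.7, 66.9, 71.9, 60.6 and 63.1 with number 3, and at 67.1 and 67.3 in SRF-PDGFRB. Number 1 lay above every other library, numbers 2 and 3 overlapped, and Sc5d had the smallest p of the 30 for replicate number (9.16e-07 unadjusted, 0.000363 after edgeR's Benjamini-Hochberg adjustment). Msmo1, the methylsterol monooxygenase, lay at 313, 334, 381, 348 and 408 CPM in the number 1 libraries, at 97.2, 285, 153, 173 and 160.3 with number 2, at 77.9, 126, 110.3, 113 and 76.7 with number 3, and at 119.7 and 128 in SRF-PDGFRB. Number 1 again lay above all others, with -1.86 between number 3 and number 1 on the log2 scale. Nsdhl, a sterol dehydrogenase that helps remove methyl groups, lay at 130.2, 146, 169, 133 and 156 CPM in the number 1 libraries, at 41.8, 138, 95.5, 118 and 83.00 with number 2, at 37.5, 57.4, 50.03, 51.7 and 40.1 with number 3, and at 54.9 and 56.5 in SRF-PDGFRB. SRF replicate 2 was the one number 2 library within the range of number 1. Hsd17b7, a keto-reductase of the same demethylation, lay at 85.7, 89.6, 108, 110.5 and 148 CPM in the number 1 libraries, at 29.3, 105, 88.3, 103 and 82.2 with number 2, at 41.3, 58.7, 44.1, 44.95 and 38.8 with number 3, and at 59.1 and 56.3 in SRF-PDGFRB. SRF, SRF-ICA1L and SRF-RELA had number 2 levels within the range of number 1, and pMSCV replicate 2 had the lowest value.

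Dhcr7, the reductase that makes cholesterol in the last step of one branch, lay at 61.98, 60.3, 77.9, 59.8 and 65.3 CPM in the number 1 libraries, at 26.6, 52.8, 33.6, 49.2 and 32.5 with number 2, at 28.98, 30.3, 30.1, 30.4 and 18.6 with number 3, and at 22.3 and 28.4 in SRF-PDGFRB. Number 1 lay above all others. Ebp, a sterol isomerase, lay at 55.2, 54.3, 67.8, 61.7 and 55.9 CPM in the number 1 libraries, at 35.7, 52.8, 34.9, 43.4 and 40.7 with number 2, at 47.1, 57.05, 51.8, 48.2 and 54.6 with number 3, and at 27.6 and 52.4 in SRF-PDGFRB. This gene did not follow the rest: number 2 lay wholly below number 1 (-0.52, SE 0.11, edgeR adjusted p = 0.0248), whereas number 3 overlapped number 1 and differed from it by -0.19 (SE 0.11, edgeR adjusted p = 0.297). Tm7sf2, a sterol reductase, lay at 10.3, 9.86, 12.3, 6.64 and 22.4 CPM in the number 1 libraries, at 5.29, 11.8, 12.6, 13.1 and 8.58 with number 2, at 5.47, 7.06, 4.803, 6.77 and 5.66 with number 3, and at 7.58 and 8.497 in SRF-PDGFRB. The numbers overlapped, the highest value was in SRF-FOXO1 replicate 1, and the gene was not called for replicate number (edgeR adjusted p = 0.063).

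Among the 4 genes for regulators and sterol transport, Insig1 and Stard4 were called and both SREBP genes were not. Insig1, which retains the SREBP complex in the endoplasmic reticulum and is itself a known SREBP target, lay at 252, 276, 286, 228 and 458 CPM in the number 1 libraries, at 118, 213, 206, 217 and 140.3 in the number 2 libraries and at 40.5, 70.4, 72.4, 76.1 and 70.9 in the number 3 libraries. The SRF-PDGFRB pair held 102 and 96.8 CPM. The 3 numbers did not overlap, and the number 3 libraries differed from number 1 by -2.20 (SE 0.20, edgeR adjusted p = 0.000357) and from number 2 by -1.45 (SE 0.20, edgeR adjusted p = 0.000791). Stard4, a sterol carrier, lay at 111, 109, 126, 115 and 178 CPM in the number 1 libraries, at 32.9, 99.02, 79.6, 79.4 and 73.1 with number 2, at 40.99, 57.6, 72.97, 67.6 and 52.7 with number 3, and at 51.2 and 66.5 in SRF-PDGFRB. Number 1 lay above all other libraries (-1.15 for number 3 on the log2 scale), and numbers 2 and 3 overlapped. Srebf1, which encodes SREBP-1, lay at 92.2, 99.3, 108, 82.7 and 134 CPM in the number 1 libraries, at 88.9, 96.2, 105, 115 and 85.6 with number 2, at 95.1, 90.3, 101, 97.96 and 107 with number 3, and at 72.8 and 94.8 in SRF-PDGFRB. The numbers overlapped completely, with -0.062 (SE 0.12, edgeR adjusted p = 0.794) between number 3 and number 1. Srebf2, which encodes SREBP-2, lay at 421, 412, 457, 399 and 512 CPM in the number 1 libraries, at 373, 448, 470.1, 508 and 366 with number 2, at 378, 359, 343, 381 and 272 with number 3, and at 316 and 408 in SRF-PDGFRB. Number 3 lay wholly below number 1, but the log2 difference was -0.35 (SE 0.13, edgeR adjusted p = 0.0988) and was not called. Its transcript level says nothing of the cleaved, nuclear protein, which was not measured.

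**Figure D2:**
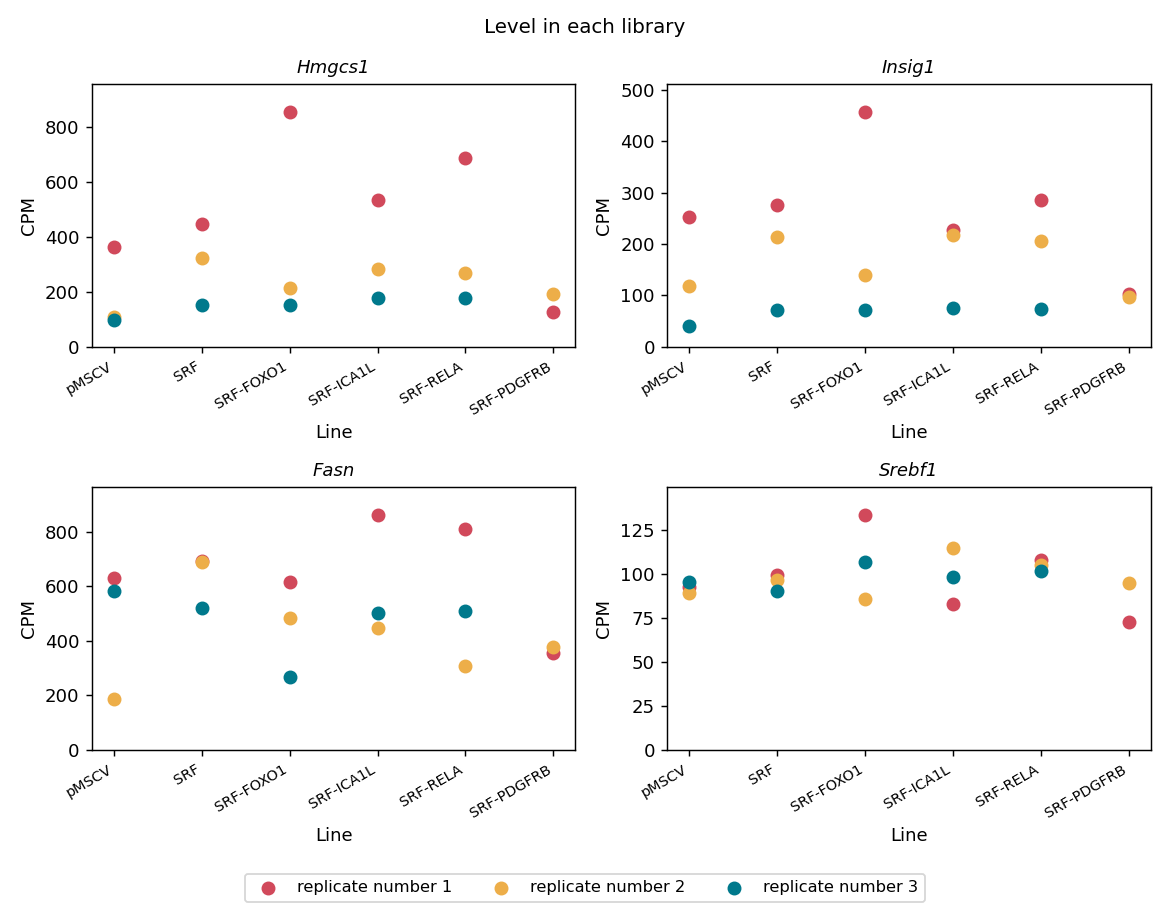
CPM of Hmgcs1, Insig1, Fasn and Srebf1 in each library (1 point each), by line, coloured by replicate number, with axes from 0. For Hmgcs1 and Insig1 the number 1 points are highest in each of the 5 lines with 3 libraries, Fasn has its lowest point in pMSCV replicate 2, and Srebf1 lies between 72.8 and 134 CPM.

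Of the 8 fatty acid genes, 5 were called lower in number 3 than in number 1 (Scd1, Scd2, Elovl6, Fads1 and Fads2), all of them desaturases or an elongase, with a median over the 8 of -0.85. In this edgeR fit with TMM scaling, the 3 enzymes that build palmitate, Acly, Acaca and Fasn, were not called in any contrast between numbers. Fasn, fatty acid synthase, lay at 629, 692, 809.9, 863 and 615 CPM in the number 1 libraries, at 186, 688, 307, 448 and 483 in the number 2 libraries and at 582, 520.0, 511, 502 and 265 in the number 3 libraries. The SRF-PDGFRB pair held 356 and 375 CPM. Number 3 lay below number 1, but number 2 ranged from the lowest value of all, in pMSCV, to a level within number 1, in SRF. The log2 difference from number 1 was -0.82 (SE 0.29, edgeR adjusted p = 0.0858) for number 2 and -0.60 (SE 0.28, edgeR adjusted p = 0.197) for number 3. Acaca, acetyl-CoA carboxylase, lay at 155, 185, 198, 191 and 164 CPM in the number 1 libraries, at 75.4, 181, 132, 156 and 135 with number 2, at 144, 148, 160.2, 167 and 101 with number 3, and at 90.2 and 136 in SRF-PDGFRB. The 3 numbers overlapped, and pMSCV replicate 2 was the lowest. Acly, ATP citrate lyase, lay at 504, 481, 482, 442 and 419 CPM in the number 1 libraries, at 179.8, 493, 282, 402 and 332 with number 2, at 328, 331, 303, 304 and 195 with number 3, and at 262 and 293 in SRF-PDGFRB. Its number 3 values lay below number 1, with a difference of -0.69 (SE 0.21, edgeR adjusted p = 0.0522).

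Scd1, a stearoyl-CoA desaturase, lay at 961, 795, 837, 593 and 1202 CPM in the number 1 libraries, at 568, 815, 1011, 1112 and 599 in the number 2 libraries and at 472, 552, 504, 532 and 455 in the number 3 libraries. SRF-PDGFRB held 356 and 661 CPM of it. Number 3 lay below both other numbers, and numbers 1 and 2 overlapped throughout, with -0.81 (SE 0.23, edgeR adjusted p = 0.039) for number 3 and -0.12 (SE 0.23, edgeR adjusted p = 0.731) for number 2 against number 1. Scd2, its close relative, lay at 2549, 2384, 2551, 2053 and 3318 CPM in the number 1 libraries, at 1034, 2041, 1910.0, 2128 and 1155 in the number 2 libraries and at 971, 1234, 1273, 1394 and 705 in the number 3 libraries. The values in SRF-PDGFRB were 657 and 1403 CPM. Number 3 lay wholly below number 1 (-1.26, SE 0.23, edgeR adjusted p = 0.0059), and SRF-PDGFRB replicate 1 had the lowest value of the 17 libraries for both genes. How reads shared by Scd1 and Scd2 were counted is not stated, so the split between the pair is uncertain.

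Elovl6, which lengthens palmitate, lay at 217, 255, 299, 225 and 265 CPM in the number 1 libraries, at 63.9, 224, 165, 178 and 157 with number 2, at 94.5, 121, 135, 121 and 95.7 with number 3, and at 99.3 and 89.2 in SRF-PDGFRB. The number 3 libraries were below number 1 (-1.16 on the log2 scale) and pMSCV replicate 2 was lowest. Fads1, a desaturase of polyunsaturated fatty acids, lay at 229.7, 230.3, 231, 175 and 268 CPM in the number 1 libraries, at 194, 201, 201, 222 and 136 with number 2, at 117, 134, 128, 127 and 110.0 with number 3, and at 112 and 107 in SRF-PDGFRB. All number 3 libraries lay below both other numbers, and number 2 was not called against number 1 (-0.26, SE 0.14, edgeR adjusted p = 0.226). Fads2, the desaturase that precedes it, lay at 232, 256, 264, 204 and 239 CPM in the number 1 libraries, at 107, 225, 178, 204 and 117 with number 2, at 132, 166, 121, 132 and 67.4 with number 3, and at 70.2 and 108 in SRF-PDGFRB. Every number 3 library was below number 1 (-1.01), and SRF-FOXO1 replicate 3 and SRF-PDGFRB replicate 1 were the lowest libraries.

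**Figure D3:**
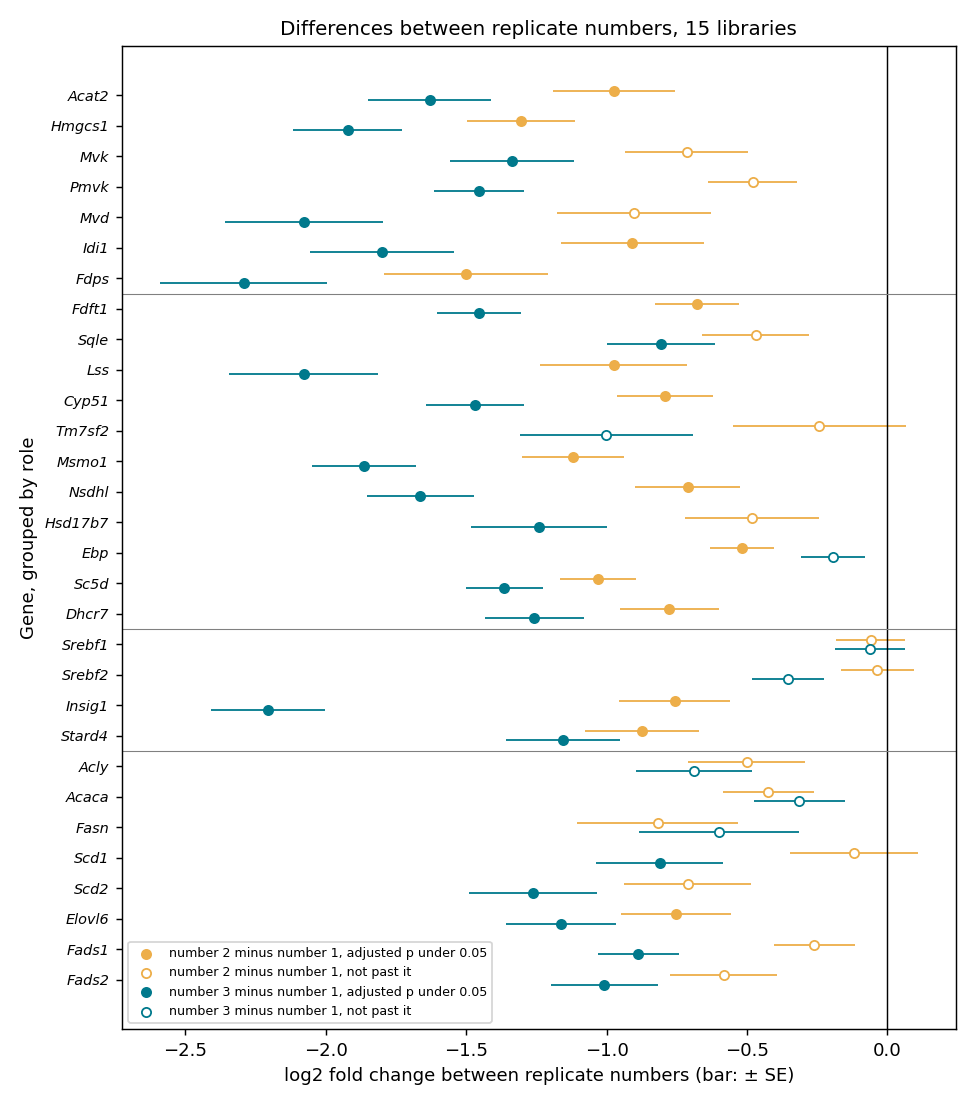
Fitted log2 difference of number 2 and of number 3 from number 1 for each gene (points, with bars of ± SE), in the 15 libraries with line in the fit. Filled points passed an adjusted p of 0.05: 15 for number 2 and 23 for number 3, all to the left of 0.

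The spread between numbers was set beside the spread between lines in the same 15 libraries, as the share of the variance of log2 CPM (prior count 2) that each accounts for. For the median gene of the 30, replicate number held 66.4% and line 14.3%, against 30.4% and 28.5% for the median of all genes. Number held the larger share for 28 of the 30 genes and for 50.6% of all genes. The means of the 3 numbers spanned a median of 1.24 on the log2 scale and those of the 5 lines 0.63, against 0.45 and 0.54 for all genes. Insig1 had the highest share by number, 86.9%, beside 6.23% by line. The exceptions were Srebf1, with 2.43% by number and 22.9% by line, and Acaca, with 28.6% and 36.9%. By role, the median share by number was 75.2% for the mevalonate steps, 76.03% for the sterol steps, 54.2% for the regulators and 56.1% for the fatty acid steps. Leaving out the 3 pMSCV libraries took the median share of line from 14.3% to 3.68% and that of number to 84.3%. These shares describe these libraries and carry no test. SRF-PDGFRB is not in them, so they do not cover all 6 lines. Its median log2 difference from SRF was -0.79 (30 of 30 genes lower), the largest in size among the fusions.

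**Figure D4:**
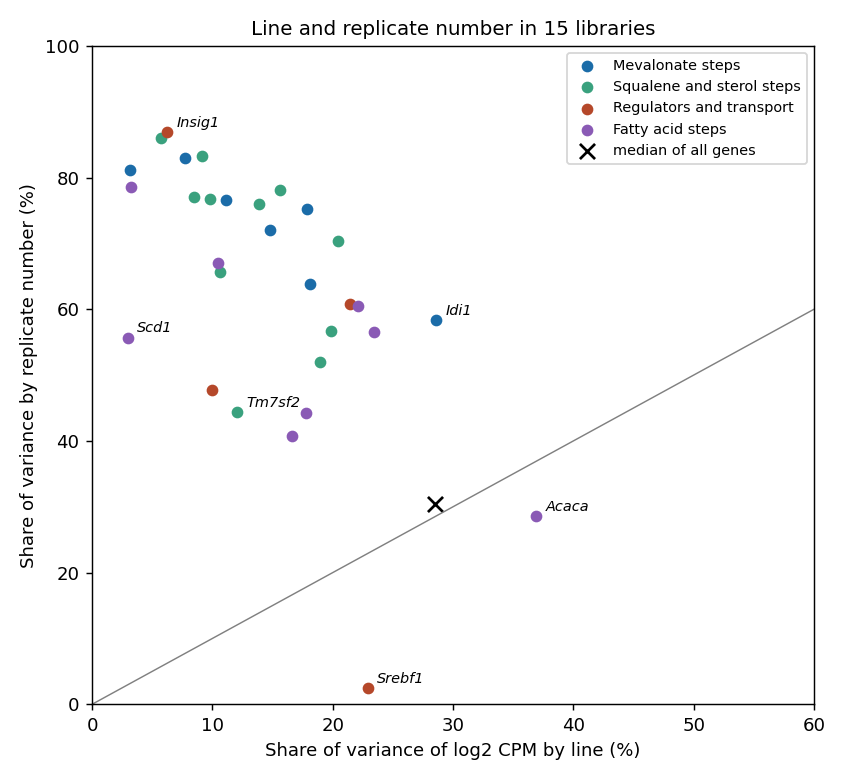
Share of the variance of log2 CPM held by line (horizontal, %) and by replicate number (vertical, %) for each of the 30 genes, coloured by role, in 15 libraries. All genes but Srebf1 and Acaca lie above the diagonal, and the cross, the median of all genes, lies near it.

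Between the lines, none of the 30 genes was called in the fit that leaves out replicate number. In that edgeR fit of all 17 libraries by line, 0 of the 30 passed in any of the 5 comparisons with pMSCV, with 0 at an unadjusted p under 0.05, and DESeq2 called 0 with 0 at an unadjusted p under 0.05. Of all genes edgeR called 0.00664% for SRF, 0% for SRF-RELA, 0.0199% for SRF-PDGFRB, 0% for SRF-ICA1L and 0.710% for SRF-FOXO1, and 3.34%, 8.05%, 7.70%, 6.23% and 20.9% had an unadjusted p under 0.05. DESeq2 called 0.0266%, 0.770%, 0.475%, 0.318% and 9.07% of all genes in the same order. The fitted differences of the 30 leaned upward in 4 lines, with a median log2 difference from pMSCV of 0.46 in SRF (30 of 30 positive), 0.39 in SRF-FOXO1 (24 of 30), 0.37 in SRF-ICA1L (29 of 30) and 0.46 in SRF-RELA (30 of 30), and downward in SRF-PDGFRB, -0.31 (27 of 30 negative). Medians over all genes ran from -0.016 to 0.0084. These comparisons share the pMSCV libraries.

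The spread of a line over its replicate numbers was as large as these differences. Hmgcs1 averaged 188 ± 150.1 CPM in pMSCV, 307 ± 147 in SRF, 378 ± 272 in SRF-RELA, 333 ± 184 in SRF-ICA1L and 407 ± 390.0 in SRF-FOXO1 (SD, n = 3 each), and 159 ± 46.4 in SRF-PDGFRB (SD, n = 2). The ranges of all 6 lines overlapped, though within each number Hmgcs1 was higher in SRF, SRF-RELA, SRF-ICA1L and SRF-FOXO1 than in pMSCV. Insig1 averaged 137 ± 107 CPM in pMSCV, 187 ± 105 in SRF, 188 ± 108 in SRF-RELA, 174 ± 84.6 in SRF-ICA1L and 223 ± 206 in SRF-FOXO1 (SD, n = 3 each), and 99.4 ± 3.66 in SRF-PDGFRB (SD, n = 2). For Fasn the means were 466 ± 243, 633 ± 97.97, 542 ± 253, 604 ± 225 and 454 ± 177 CPM in the same order (SD, n = 3 each) and 366 ± 13.8 (SD, n = 2). In the test for any difference among the 6 lines, 0 of the 30 genes were called by edgeR or by DESeq2, 0 had an unadjusted p under 0.05 in either, and 0.0797% of all genes were called by edgeR (8.68% at the unadjusted p) and 4.22% by DESeq2. The smallest p-values of the 30 there belonged to Acaca (0.211), Fads2 (0.238) and Elovl6 (0.348), unadjusted.

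How far these lines stood above pMSCV varied with the pMSCV library. Within the libraries of the same number, the median log2 difference of SRF from pMSCV was 0.078 for number 1 (17 of 30 genes higher in SRF), 1.36 for number 2 (30 of 30) and 0.34 for number 3 (27 of 30). SRF-ICA1L gave -0.029, 1.10 and 0.30, SRF-FOXO1 0.38, 0.81 and 0.034, and SRF-RELA 0.31, 0.81 and 0.29. In each of these lines the difference was largest against pMSCV replicate 2, which had the lowest value of the 17 libraries for 11 of the 30 genes. Without that library the medians against pMSCV were 0.22 for SRF, 0.15 for SRF-FOXO1, 0.14 for SRF-ICA1L and 0.17 for SRF-RELA, and without pMSCV replicate 1 they were 1.08, 1.13, 0.99 and 1.09. The SRF-FOXO1 median turned to -0.24 without SRF-FOXO1 replicate 1, and that of SRF-RELA was 0.061 without SRF-RELA replicate 1.

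**Figure D5:**
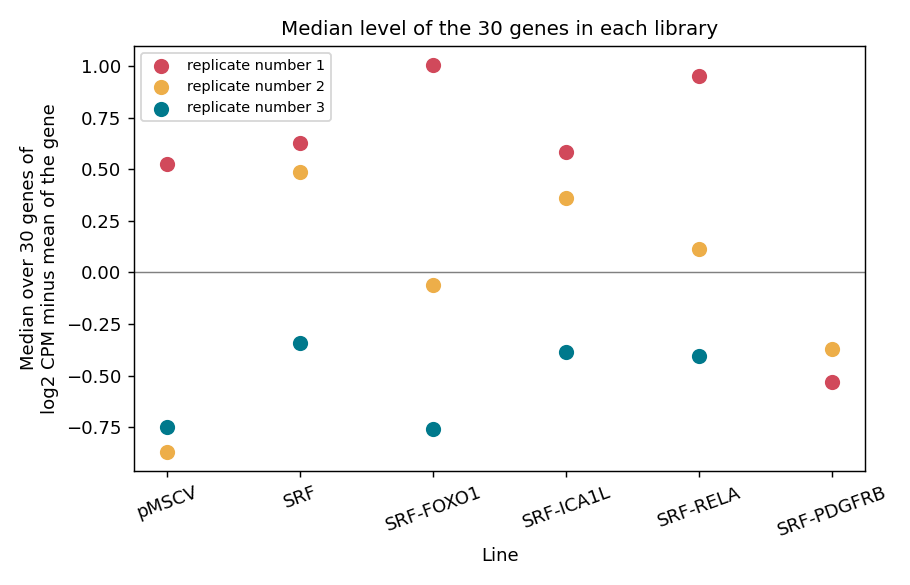
Median over the 30 genes of log2 CPM minus the mean of the gene, for each library (1 point each), by line and coloured by replicate number. Number 1 is the highest in all 5 lines with 3 libraries, from 0.53 to 1.004, pMSCV replicate 2 is the lowest of all at -0.87, and both SRF-PDGFRB libraries lie below 0.

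With replicate number in the fit, some differences between lines came closer to the threshold. Over the 5 lines and 15 libraries, 0 of the 30 genes were called by edgeR for line beside number, where 5.08% of all genes were, and 4 had an unadjusted p under 0.05, as had 22.8% of all genes: Hmgcs1 (edgeR adjusted p = 0.0957), Sc5d (0.111), Cyp51 (0.129) and Idi1 (0.138). DESeq2 called these 4 in the same design, where it called 17.3% of all genes. Without SRF-FOXO1 replicate 2 edgeR called Hmgcs1, Sc5d and Cyp51, 3 of the 30, where it called 24.7% of all genes. With SRF-PDGFRB added, over 6 lines and 17 libraries, edgeR called 0 of the 30 for line beside number and 55 of all 15062 genes. Of the 30, 14 then had an unadjusted p under 0.05, against 14.8% of all genes. In the 4 lines whose same-numbered libraries deviate together (pMSCV, SRF, SRF-RELA and SRF-ICA1L, 12 libraries), edgeR with replicate number as a block called Hmgcs1 higher in SRF-ICA1L than in pMSCV by 0.92 (SE 0.20, adjusted p = 0.0387) on the log2 scale. It called Hmgcs1 higher in SRF-RELA by 1.02 (SE 0.20, adjusted p = 0.0162), and Cyp51 by 0.82 (SE 0.19, adjusted p = 0.0306). These 4 lines were set apart by a pattern in the same counts, so the adjusted p-values of this block may be too small. The block called 2.87% of all genes in the SRF-ICA1L comparison and 6.15% in the SRF-RELA comparison, so 1 and 2 of 30 are near those shares. For SRF against pMSCV it called 0 of the 30 and 0.0134% of all genes, with 16 of the 30 and 14.8% of all genes at an unadjusted p under 0.05. At that unadjusted p it had 12 of the 30 in SRF-ICA1L (19.0% of all genes) and 11 in SRF-RELA (22.1%). The block in all 17 libraries, where numbers do not pair every line, called 0 of the 30 and had 11 at an unadjusted p under 0.05 in SRF against pMSCV (5.97% of all genes), 10 in SRF-RELA (12.03%), 6 in SRF-ICA1L (9.57%) and 6 in SRF-FOXO1 (27.6%), all higher, and 6 in SRF-PDGFRB, all lower (12.6%).

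Against SRF, no gene of the 30 was called for any of the 4 fusions, and the median was below 0 most in SRF-PDGFRB. The median log2 difference from SRF was -0.10 in SRF-FOXO1 (13 of 30 positive), -0.055 in SRF-ICA1L (8 of 30), -0.0079 in SRF-RELA (14 of 30) and -0.79 in SRF-PDGFRB (0 of 30). edgeR called 0 of the 30 in each, as did DESeq2, where 0.00664%, 0%, 0.00664% and 0.0531% of all genes were called by edgeR, and 19.2%, 1.56%, 3.21% and 5.03% had an unadjusted p under 0.05 in the order just given. DESeq2 called 4.30%, 0.0133%, 0.0599% and 0.386% of all genes. In this fit no gene of the 30 had an unadjusted p under 0.05 except Fads2 in SRF-PDGFRB against SRF, at -1.27 (SE 0.50, unadjusted p = 0.0224, edgeR adjusted p = 0.91), and DESeq2 had 2 there. With the replicate block in 17 libraries the SRF-PDGFRB median was -0.98, and 22 of the 30 genes had an unadjusted p under 0.05, all lower than in SRF, against 9.30% of all genes, with 0 called after adjustment. With SRF and SRF-PDGFRB alone in the fit there were 9, all lower, against 7.31% of all genes. The block gave 1 such gene of the 30 in SRF-FOXO1 against SRF (27.1% of all genes), and 0 in SRF-ICA1L (2.76%) and SRF-RELA (5.24%). Over each single library left out, the SRF-PDGFRB median ran from -1.002 to -0.57, while the medians of the other three changed sign.

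Both SRF-PDGFRB libraries were below all 5 number 1 libraries for most of these genes. They were within or above the range of number 3 for most, as they were for most of all genes. In SRF-PDGFRB replicate 1, 29 of the 30 genes lay below all 5 number 1 libraries of the other lines, against 20.4% of all genes, and the median log2 difference from pMSCV replicate 1 was -1.07 (0 of 30 higher). SRF-PDGFRB replicate 2 lay below all 5 number 1 libraries for 26 genes, against 19.02% of all genes. It lay within the range of the 5 number 2 libraries for 27 genes and below them for 3, against 22.2% of all genes below. Its median log2 difference from pMSCV replicate 2 was 0.48 (27 of 30 higher). Against SRF of the same number the medians were -1.18 and -0.88, with 0 of 30 genes higher in either. Replicate 1 lay within the range of the 5 number 2 libraries for 20 genes and below them for 10, against 19.0% of all genes below. Set beside the 5 number 3 libraries, replicate 1 lay within their range for 17 of the 30 genes, above all 5 for 8 and below all 5 for 5, and replicate 2 for 16, 12 and 2. Over all genes, replicate 1 lay within the range of numbers 1, 2 and 3 for 56.1%, 59.1% and 47.9%, and replicate 2 for 60.2%, 54.3% and 76.5%. Of all genes, 27.2% lay above all 5 number 3 libraries and 24.9% below them in replicate 1. In replicate 2 these shares were 12.6% and 10.9%. With 2 libraries of this line, and with the meaning of a replicate number not given, line and replicate number cannot be told apart here.

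Some other genes of the same pathways were called for replicate number. Of 17 further genes of sterol regulation and handling, 3 were called for replicate number by edgeR, against 29.0% of all genes. This list was thus not called more often than all genes. Abcg1, a sterol exporter, was lower in number 3 than in number 1, with a log2 difference of -1.06. Erlin1, which acts in the endoplasmic reticulum, was lower in number 2 than in number 1 (-0.45) and higher in number 3 than in number 2 (0.54), and Nr1h2, a sterol-sensing nuclear receptor, was lower in number 3 than in number 2 (-0.37). Rnf145, a ubiquitin ligase that was not called in the joint test, was higher in number 3 than in number 2 (0.38). Between these 2 numbers, 14.0% of all genes were called lower and 12.5% higher in number 3. Abcg1 was the one gene of the 17 called for line beside number (edgeR adjusted p = 0.00814), where 5.08% of all genes were called.

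Of 24 further genes of fatty acid and lipid synthesis, 23 had a row and 12 were called for replicate number, against 29.0% of all genes. Compared with number 1, 6 were called lower in number 3 and 0 higher, against 6.38% and 5.49% of all genes. Slc25a1, the mitochondrial citrate carrier that feeds cytosolic acetyl-CoA, lay at 73.4, 94.4, 119, 76.4 and 126 CPM in the number 1 libraries, at 91.6, 91.98, 107, 114 and 91.4 with number 2, at 37.2, 44.02, 44.02, 42.1 and 47.00 with number 3, and at 92.9 and 40.04 in SRF-PDGFRB. Number 3 lay below both other numbers (-1.17, SE 0.13, edgeR adjusted p = 0.000656). Lpin1, a phosphatidate phosphatase, lay at 29.7, 30.3, 40.1, 25.1 and 70.05 CPM in the number 1 libraries, at 22.8, 23.2, 29.3, 32.7 and 25.98 with number 2, at 4.95, 5.53, 8.35, 11.2 and 18.6 with number 3, and at 27.6 and 12.7 in SRF-PDGFRB. Its log2 difference between number 3 and number 1, -2.07 (SE 0.25, edgeR adjusted p = 0.000919), was the largest of the 6, and number 3 again lay below number 1. The other four were Acss2 (-1.20), which makes acetyl-CoA from acetate, Tecr (-0.77), a reductase of fatty acid elongation, Lpcat3 (-0.56) and Mid1ip1 (-0.52). Me1 (-0.33), Elovl5 (-0.43) and Elovl7 (-1.08) were called lower in number 3 than in number 2 and Mcat (0.44) higher. Of all genes, 14.0% were called lower there and 12.5% higher. Elovl1 (-0.42) was lower in number 2 than in number 1 (3.77% of all genes called lower), while Acacb passed in the joint test alone. Tecr was the one gene of the 23 called for line beside number (edgeR adjusted p = 0.0285), where 5.08% of all genes were called.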

How the data were processed

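RNA-seq was made from 17 libraries of C2C12 cells in 6 groups, with group and replicate number taken from the library titles. The values are the raw counts per gene that the authors deposited, in 1 table of 15062 genes. Per the submitters' processing notes, FastQC 0.11.8, Trimmomatic 0.39, HISAT2 and featureCounts of Subread 2.0.0 were used with build GRCm38, and per the labels' protocols the library kit was stranded. The annotation, the strand setting and the handling of shared reads are not given in the sources used here. Every gene in the deposited table reached 10 counts in at least 3 libraries, and 1531 genes had no symbol but stayed in the tests.

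Counts were scaled by TMM and tested with edgeR 4.0.16 (robust quasi-likelihood, R 4.3.3, limma 3.58.1) over all genes, with Benjamini-Hochberg adjustment within each comparison at 0.05. Lines were compared in all 17 libraries with group alone. Replicate number was tested in the 15 libraries of the 5 groups with numbers 1, 2 and 3, with group in the fit (14948 genes after edgeR's low-count filter). A standard error is the log2 difference over the square root of F. The biological coefficient of variation was 36.5% and, at these depths, exceeds counting error for most genes. Alternatives were DESeq2 1.42.0, RLE size factors, a CPM filter, the compared groups alone, the replicate block and each library left out.

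Same-numbered libraries of SRF-RELA, SRF-ICA1L, SRF and pMSCV deviated together (correlations across genes of 0.392 to 0.789 in 18 pairs, and at most 0.114 for different numbers). Those of SRF-FOXO1 did not in every pair. The 2 SRF-PDGFRB libraries deviate from their mean by equal and opposite amounts, so their correlations cannot show whether their numbers pair with the other lines. Chi-square over degrees of freedom ran from 29.8 to 189 for pairs of libraries of 1 group, so all differed beyond sampling noise. The fitting code was tested on simulated data.

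The 30 genes, the lists of other genes and markers, the tests and the rule for naming genes were chosen with earlier results of these data known. By that rule all 30 genes are accounted for, values in every library are given for a fixed set, for every gene called and for the smallest p-values, and of the other pathway genes those called are named, except 1 gene of the sterol list that is not reported here. Promoter sequences are from RefSeq.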

Additional observations from a re-analysis of the deposited data

How the results depend on the processing

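The count of genes lower in number 3 than in number 1 stayed within 1.5 times its value under every alternative run: DESeq2, RLE size factors, all 17 libraries, the 12 paired libraries and each library left out (21 to 25 called). Over single libraries left out, 3 to 19 genes were called between numbers 2 and 1, 8 to 20 between numbers 3 and 2, 22 to 28 for replicate number and 0 to 3 for line beside number. With all 17 libraries, 0 and 9 genes were called between numbers 2 and 1 and numbers 3 and 2. DESeq2 called 4 for line beside number. With the replicate block in 12 libraries, 1 gene was called for SRF-ICA1L and 2 for SRF-RELA against pMSCV, and the block in 17 libraries, like every other alternative run, called 0 of the 30 in the comparisons between lines. The cause of these changes was not tested.

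Over single libraries left out, the median log2 difference from pMSCV ran from 0.22 to 1.08 for SRF, -0.24 to 1.13 for SRF-FOXO1, 0.14 to 0.99 for SRF-ICA1L, -0.56 to 0.29 for SRF-PDGFRB and 0.061 to 1.09 for SRF-RELA. From SRF it ran from -0.69 to 0.22 for SRF-FOXO1, -0.30 to 0.12 for SRF-ICA1L, -1.002 to -0.57 for SRF-PDGFRB and -0.43 to 0.22 for SRF-RELA. Where this left SRF-PDGFRB with 1 library, that library was taken to vary like the other groups. Without 1 line, the median share of variance by line ran from 3.68% to 17.5% and by number from 63.6% to 84.3%, with 3.68% by line without pMSCV.

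Single genes changed sign only where they were not called. Between numbers 2 and 1, the log2 difference with the 12 paired libraries was 0.083 for Tm7sf2, 0.083 for Srebf1, 0.085 for Srebf2 and 0.11 for Scd1, and with all 17 libraries 0.014, 0.032 and 0.051 for the last 3. Over single libraries left out it ran from -0.49 to 0.063 for Tm7sf2, -0.16 to 0.049 for Srebf1, -0.12 to 0.099 for Srebf2 and -0.32 to 0.078 for Scd1. Srebf1 between numbers 3 and 1 was 0.011 with the paired libraries and ran from -0.16 to 0.046 over libraries left out, and between numbers 3 and 2 from -0.11 to 0.093. Between numbers 3 and 2, Acaca ran from -0.054 to 0.22 and Fasn from -0.050 to 0.43, negative without pMSCV replicate 2 alone. Total counts per library were alike, and depth as a limit on these comparisons was not tested.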
